A study of Mus musculus with 6 samples.

Results

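The genes described here are 29 genes of cholesterol synthesis and sterol handling, picked by symbol for their function, of the 41214 gene identifiers counted in the series. They comprise 18 synthesis enzymes, 4 genes of sterol sensing, 5 sterol transport genes and both liver X receptors, and 28 of the 29 passed the filter on low counts. Messenger RNA was sequenced from the trypsin-treated epidermis of C57BL/6 mice at postnatal day 4. There were 3 libraries labelled ARPC4 ko, here called ko, and 3 labelled wt. The ko label names a knockout of Arpc4, a subunit of the Arp2/3 complex, the machine that starts branches on actin filaments, and the series title places it in the epidermis and names a psoriasis-like disease. The labels do not give the driver of the deletion, the deleted exons or how many animals entered a library, nor do they state that each replicate is a different animal. The p-values therefore speak of the spread between these 6 libraries alone.

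Cholesterol is built from acetyl-CoA through mevalonate, squalene and lanosterol. When membranes hold little sterol, the escort protein Scap carries the precursor of the transcription factor SREBP2 to the Golgi, where it is cleaved and then activates genes of the pathway, and the Insig proteins hold Scap back when sterol is plentiful. Liver X receptors sense oxidised sterols and activate sterol exporters. In the epidermis, keratinocytes synthesise cholesterol for the lipid layers of the cornified barrier, and the last enzymes of the pathway are known from inherited disorders that affect the skin.

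The libraries held 17561294 to 20745246 counts in genes in ko and 19532675 to 22659511 in wt. Replicates 1 and 2 of each genotype carry a date in their titles and replicate 3 does not, so each genotype had 2 dated libraries and 1 undated one. Levels are given as CPM, the read count scaled to library size after correction by the trimmed mean of M values (TMM), and a log2 fold change is ko over wt. Arpc4 itself was measured at 67.5, 65.6 and 64.5 CPM in ko libraries and at 72.5, 82.5 and 73.1 CPM in wt libraries. The groups did not overlap, with ko lower, but the log2 fold change of -0.21 ± 0.10 (SE) had an adjusted p of 0.469 with edgeR's quasi-likelihood test and Benjamini-Hochberg adjustment over all genes tested. With the deleted exons not given, this gene-wide level does not check the ko label. The epidermis label was checked on markers of suprabasal keratinocytes, such as Krt1 and Krt10, whose summed levels were 88993 to 164791 CPM in ko and 88244 to 148119 CPM in wt. Markers of hair follicle, led by Tchh and Krt71, summed to 4062 to 6567 CPM in ko and 3824 to 11361 CPM in wt. The check therefore shows that keratinocytes were present, not that other tissue was absent. Of 12 lists of cell type markers, no measured marker was at 0 in every library.

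The promoters were searched for fixed strings of letters that sterol-responsive factors are known to read. The RefSeq promoter table on build GRCm38.p6 held a window of 250 bases before to 50 after the start for 23 of the 29 genes. The 4 motifs were searched on both strands. The core of the sterol regulatory element, TCACNCCAC, was found in 1 of the 23, Hmgcs1, and in 1.44% of the 27025 genes of the table. CCAAT, the box read by the factor NF-Y, was found in 18 of 23 and in 41.1% of all genes, and GGGCGG, the Sp1 box, in 20 of 23 and in 38.2%. A direct repeat of GGTCA with 5 bases between its copies, which holds the core of a liver X receptor element, was in 0 of 23 and in 0.0851% of all genes. None of these 4 motifs overlaps another by its letters in the stretches printed here. A match is a description of letters, not of binding, and where a motif was not found only these letters are missing from this window. Variants of the elements with other letters or spacing were not searched, so an unmarked stretch may still hold an element.

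The 160 bases before the start are shown 5′ to 3′ on the strand of the gene for 5 genes, with capitals marking a match to a motif on either strand. Hmgcs1 is shown for the only match to the string TCACNCCAC, and Cyp51 and Sc5d as the synthesis enzymes whose groups did not overlap. Insig1 is shown as a sterol-regulated regulator and Abca1 as the exporter with the largest difference.
Hmgcs1, chr13:119690191-119690350, + strand: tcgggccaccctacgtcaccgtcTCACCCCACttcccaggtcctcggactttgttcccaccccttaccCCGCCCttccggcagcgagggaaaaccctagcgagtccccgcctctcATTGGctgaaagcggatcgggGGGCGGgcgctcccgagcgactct
Cyp51, chr5:4104698-4104857, - strand: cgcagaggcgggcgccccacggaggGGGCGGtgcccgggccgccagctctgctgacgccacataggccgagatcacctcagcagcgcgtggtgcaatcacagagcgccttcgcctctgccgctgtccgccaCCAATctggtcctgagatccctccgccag
Sc5d, chr9:42264301-42264460, - strand: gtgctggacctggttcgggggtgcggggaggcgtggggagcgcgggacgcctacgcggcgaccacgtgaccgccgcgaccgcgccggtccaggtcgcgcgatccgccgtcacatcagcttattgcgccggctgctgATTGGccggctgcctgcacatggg
Insig1, chr5:28071252-28071411, + strand: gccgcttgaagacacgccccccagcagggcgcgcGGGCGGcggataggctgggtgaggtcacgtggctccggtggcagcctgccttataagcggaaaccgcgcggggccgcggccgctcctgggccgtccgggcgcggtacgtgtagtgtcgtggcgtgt
Abca1, chr4:53159896-53160055, - strand: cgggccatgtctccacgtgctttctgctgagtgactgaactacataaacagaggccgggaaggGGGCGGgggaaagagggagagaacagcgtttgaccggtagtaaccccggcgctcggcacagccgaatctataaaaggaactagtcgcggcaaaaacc
The sterol regulatory element core of Hmgcs1 starts 137 bases before the start, at chr13:119690214-119690222, and is followed by Sp1 letters and a CCAAT box on the opposite strand. Cyp51 and Sc5d each hold 1 CCAAT box in this stretch, 29 and 24 bases before the start, while Insig1 and Abca1 hold 1 Sp1 box each and no CCAAT.

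No gene of sterol synthesis or transport passed the test between ko and wt epidermis. Among the 28 genes tested, edgeR's quasi-likelihood test called 0 higher and 0 lower in ko at an adjusted p of 0.05, where it called 0.219% of all 13704 genes tested higher and 0% lower. DESeq2 also called 0 of the 28 higher and 0 lower, against 2.9% and 1.6% of these genes. When the model held a term for dated against undated titles, edgeR called 0 and 0, against 3.2% and 1.98%, and limma-voom called 0 and 0, against 0% and 0%. At an unadjusted p under 0.05 in edgeR, 1 gene, Sc5d, was higher, against 7.98% of all genes, and 2, Insig2 and Abca1, were lower, against 5.25%. The log2 fold changes of the 28 genes ran from -0.81 for Abca1 to 0.48 for Idi1, with 17 above 0 and 11 below. Their median was 0.06, against 0.02 over all genes tested, of which 7275 lay above 0 and 6429 below. That median was -0.03 without ko replicate 2 and -0.05 without wt replicate 3, so its sign rested on single libraries.

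The intervals limit how large a difference these libraries could hide. The 95% interval of the fold change lay within 2-fold in either direction for 24 of the 28 genes, against 64.3% of all genes tested. The exceptions were Tm7sf2, Insig2, Abca1 and Abcg1. The groups did not overlap for 3 genes with ko higher, Cyp51, Sc5d and Scap, against 11.3% of all genes, and for 0 genes with ko lower, against 8.03%.

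**Figure D1:**
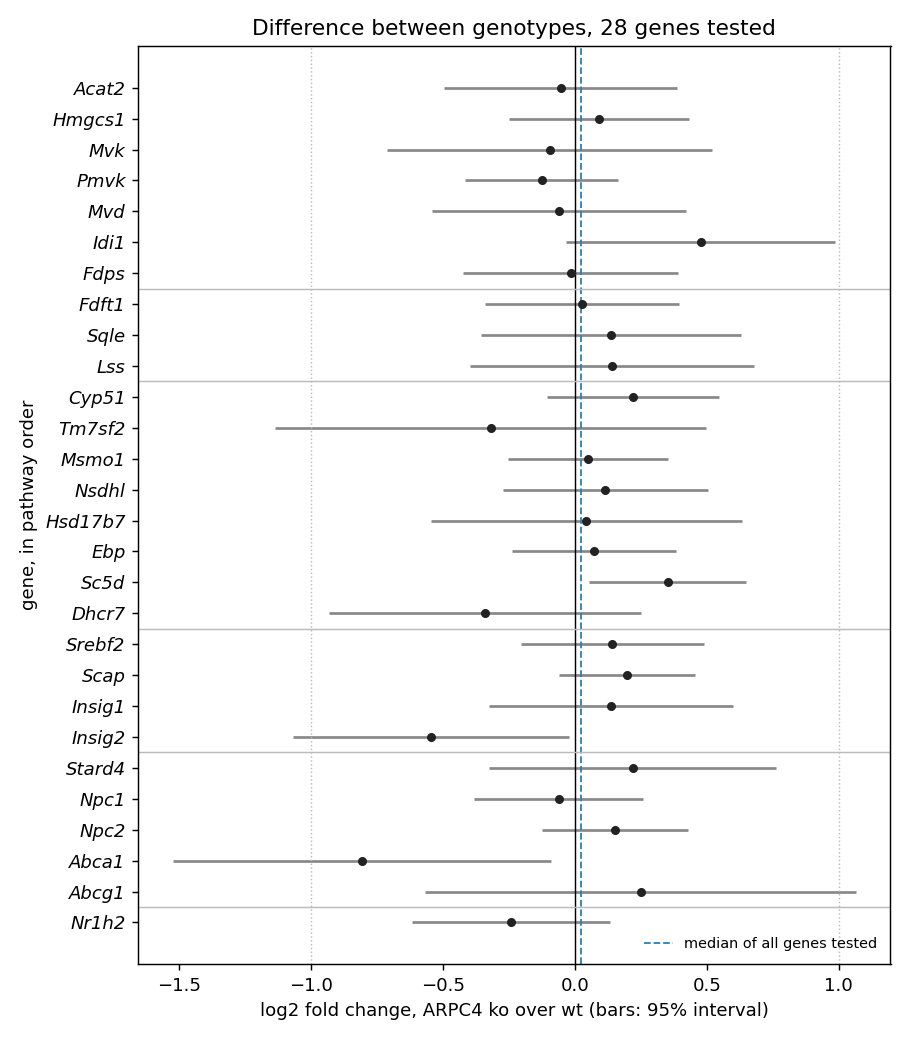
Log2 fold change of each of the 28 genes tested, ko over wt, with its 95% interval from edgeR and the genes in pathway order. All points lie between -0.81 for Abca1 and 0.48 for Idi1, and the intervals of Sc5d, Insig2 and Abca1 do not cross 0 before adjustment.

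The mevalonate enzymes turn acetyl-CoA into the isoprenoid units of sterols, and 0 of the 7 passed the test in either direction, with a median log2 fold change of -0.05. Hmgcs1, the enzyme that makes HMG-CoA, had 720.0, 858 and 746 CPM in ko libraries and 764, 692 and 728 CPM in wt libraries. The highest value was ko replicate 2, the groups overlapped, and the log2 fold change was 0.09 with a 95% interval of -0.25 to 0.43 (edgeR adjusted p = 0.870). Per kilobase of exon it was the most abundant of the 29 genes, with 169 ± 16.0 CPM per kb in ko and 158 ± 7.91 in wt (SD, n = 3 each). Acat2, which joins acetyl-CoA units at the head of the pathway, had 42.8, 56.2 and 35.8 CPM in ko and 50.8, 48.2 and 40.9 CPM in wt, and the ko values enclosed the wt values.

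The kinases and the decarboxylase that process mevalonate also overlapped between genotypes. Mvk, mevalonate kinase, had 112, 118 and 69.0 CPM in ko and 109, 130.2 and 79.6 CPM in wt, with the undated library lowest in both. Pmvk, phosphomevalonate kinase, had 120.0, 113 and 97.9 CPM in ko and 116, 128 and 118 CPM in wt. Mvd, the decarboxylase that yields isopentenyl diphosphate, had 93.1, 95.9 and 58.1 CPM in ko and 86.7, 91.4 and 79.7 CPM in wt. In each of these 3 genes the groups overlapped, and the log2 fold changes were -0.10, -0.13 and -0.06, with edgeR adjusted p of 0.926, 0.755 and 0.940.

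Idi1, the isomerase of isopentenyl diphosphate, had the highest log2 fold change of the 29 genes. It was measured at 274, 395 and 248 CPM in ko and at 251, 219.9 and 188 CPM in wt. Ko replicate 2 stood above the other libraries, while ko replicate 3 lay just under wt replicate 1, so the groups overlapped. The log2 fold change was 0.48 ± 0.21 (SE), with a 95% interval of -0.03 to 0.99 and an adjusted p of 0.414 by edgeR. Fdps, which makes farnesyl diphosphate, had 121, 158 and 110.2 CPM in ko and 135, 144 and 114 CPM in wt, a log2 fold change of -0.02. Its exons share 1124 bases with a predicted gene, Gm43738, on the same strand. In all, 3 of the 29 genes share exon bases with another gene on their own strand and 7 with one on the other strand, and their counts are uncertain there.

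**Figure D2:**
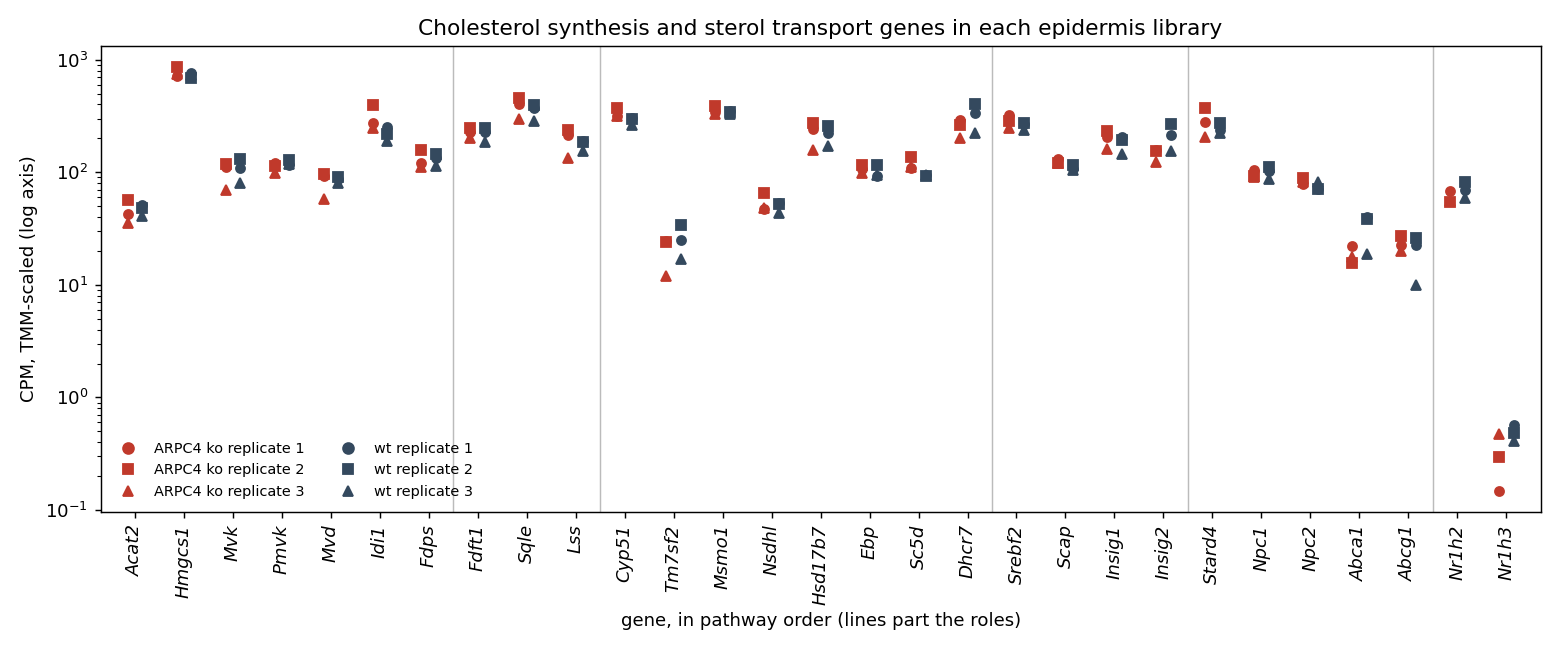
Level of each of the 29 genes in each library, in CPM on a log axis, with ko points left of wt points and shapes marking the replicates. The groups overlap for all tested genes but Cyp51, Sc5d and Scap, and Nr1h3 lies below 1 CPM in all 6 libraries.

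Squalene and lanosterol formation is the branch point towards sterols, and 0 of its 3 enzymes passed the test, with a median log2 fold change of 0.14. Fdft1, squalene synthase, had 228, 248 and 201 CPM in ko and 229, 249 and 187 CPM in wt, a log2 fold change of 0.03. Sqle, squalene epoxidase, a rate-limiting step of the pathway, had 401, 455 and 298 CPM in ko and 368, 395 and 286 CPM in wt. Lss, lanosterol synthase, had 215, 238 and 135 CPM in ko and 190.4, 187 and 156 CPM in wt. In all 3 genes both undated libraries lay below the 4 dated ones and the genotypes overlapped. The edgeR adjusted p ran from 0.862 for Sqle to 0.964 for Fdft1, and the 95% interval of Lss, the widest of the 3, was -0.40 to 0.68.

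Lanosterol is turned into cholesterol by demethylation, reduction and isomerisation, and 0 of the 8 enzymes measured for these steps passed the test, with a median log2 fold change of 0.06. Sc5d, the desaturase that makes 7-dehydrocholesterol, had 109.6, 137 and 111 CPM in ko libraries and 94.0, 91.8 and 94.4 CPM in wt libraries. Every ko library was above every wt library, and the wt values lay close together. The means were 119 ± 15.3 CPM in ko and 93.4 ± 1.40 CPM in wt (SD, n = 3 each). The log2 fold change was 0.35 ± 0.13 (SE), with a 95% interval of 0.05 to 0.65, an unadjusted p of 0.0270 and an edgeR adjusted p of 0.302, the lowest of the 28 genes.

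Cyp51, lanosterol demethylase, had 313, 374 and 318 CPM in ko and 306, 296 and 262 CPM in wt. The groups did not overlap, with ko replicate 1 only just above wt replicate 1, and the log2 fold change of 0.22 had a 95% interval of -0.11 to 0.55 and an edgeR adjusted p of 0.583. Exons of Cyp51 share 166 bases with Akap9 on the other strand. Msmo1, which oxidises the methyl groups at C4, had 342, 391 and 327 CPM in ko and 347, 346 and 332 CPM in wt. Nsdhl, the dehydrogenase of the same step, had 47.3, 65.5 and 48.4 CPM in ko and 53.0, 52.1 and 43.8 CPM in wt. Hsd17b7, the reductase that completes it, had 241, 272 and 157 CPM in ko and 221, 259 and 171 CPM in wt. All 3 genes of this step overlapped between the genotypes, with log2 fold changes of 0.05, 0.11 and 0.04 and edgeR adjusted p of 0.920, 0.851 and 0.965.

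Tm7sf2, a sterol reductase that acts just after Cyp51, was the synthesis enzyme with the lowest level per kilobase of exon, 4.58 ± 1.62 CPM per kb in ko and 5.73 ± 1.88 in wt (SD, n = 3 each). Its library values were 24.7, 23.9 and 11.96 CPM in ko and 24.9, 33.7 and 17.1 CPM in wt. Its log2 fold change of -0.32 had a wide 95% interval of -1.14 to 0.50, and its exons overlap those of Vps51 on the same strand over 532 bases. Ebp, the sterol isomerase, had 107, 115 and 97.5 CPM in ko and 93.5, 115 and 95.3 CPM in wt. Dhcr7, the reductase that turns 7-dehydrocholesterol into cholesterol, had 293, 263 and 199.7 CPM in ko and 334, 399.7 and 225 CPM in wt. The groups of Dhcr7 overlapped, with a log2 fold change of -0.34, a 95% interval of -0.93 to 0.25 and an edgeR adjusted p of 0.649.

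Of the 4 genes of sterol sensing, 0 passed the test in either direction, with a median log2 fold change of 0.14. Srebf2, which encodes SREBP2, had 323, 286 and 249.5 CPM in ko and 266, 276 and 237 CPM in wt, and the groups overlapped. Scap, the escort protein, had 132, 122 and 120.4 CPM in ko and 107, 116 and 104 CPM in wt. Every ko value of Scap was above every wt value, with a log2 fold change of 0.20, a 95% interval of -0.06 to 0.45 and an edgeR adjusted p of 0.520. Insig1, the retention factor that SREBP itself induces, had 206, 232 and 161 CPM in ko and 205, 195 and 145 CPM in wt, a log2 fold change of 0.14 with a 95% interval of -0.33 to 0.60.

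Insig2, the related retention factor that is less dependent on SREBP, had 159, 155 and 122 CPM in ko libraries and 215, 267 and 156 CPM in wt libraries. Both dated ko libraries were below both dated wt libraries and the undated ko library was below the undated wt one, while ko replicate 1 lay just above wt replicate 3. The means were 145 ± 20.1 CPM in ko and 212 ± 55.7 CPM in wt (SD, n = 3 each). The log2 fold change was -0.55 ± 0.22 (SE), with a 95% interval of -1.07 to -0.02, an unadjusted p of 0.0429 and an edgeR adjusted p of 0.354. With the term for dated against undated titles the edgeR adjusted p was 0.0501, and by DESeq2 it was 0.260, so its size depended on the model. The log2 fold changes of Insig1 and Insig2 had opposite signs, and the difference between them was not tested.

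Among the 5 transport genes 0 passed the test in all 6 libraries, with a median log2 fold change of 0.15. Abca1, which exports cholesterol from cells to apolipoproteins, had 22.2, 15.5 and 17.7 CPM in ko libraries and 40.1, 38.2 and 18.9 CPM in wt libraries. Every ko value was under both dated wt values, and the undated wt library, at 18.9 CPM, lay among the ko values. The means were 18.5 ± 3.42 CPM in ko and 32.4 ± 11.7 CPM in wt (SD, n = 3 each), and the log2 fold change was -0.81 ± 0.30 (SE), with a 95% interval of -1.53 to -0.09, an unadjusted p of 0.0326 and an edgeR adjusted p of 0.322. In the 4 dated libraries alone the log2 fold change was -1.08 with an edgeR adjusted p of 0.0471. That fit is 1 of 14 alternatives and holds 2 libraries per genotype. It leaves out wt replicate 3, the wt library that lay among the ko values, so it is no separate support for a difference. In that fit Abca1 was the 1 gene of the 28 called lower, against 0.485% of genes, and 0 of the 28 were called higher, against 1.16%. Abcg1, a partner exporter that passes sterol to lipoprotein particles, had 22.8, 27.3 and 20.04 CPM in ko and 22.7, 26.3 and 10.02 CPM in wt. Its dated values were close in both genotypes, and its log2 fold change of 0.25 had a 95% interval of -0.57 to 1.07.

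The genes that move sterol inside cells overlapped between genotypes. Stard4, a soluble sterol carrier, had 281, 372 and 204 CPM in ko and 239, 274 and 223 CPM in wt, with a log2 fold change of 0.22. Npc1, the membrane protein that releases sterol from lysosomes, had 106, 93.2 and 90.3 CPM in ko and 102, 112 and 87.3 CPM in wt, with a log2 fold change of -0.06. Npc2, which hands sterol to Npc1, had 78.5, 88.6 and 81.8 CPM in ko and 70.3, 70.9 and 82.7 CPM in wt, with a log2 fold change of 0.15. In each of the 3 the groups overlapped, and the edgeR adjusted p were 0.778, 0.904 and 0.669 in this order.

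The liver X receptors were expressed unequally. Nr1h2, the widely expressed receptor, had 67.5, 54.9 and 55.6 CPM in ko and 69.3, 82.2 and 59.3 CPM in wt, with a log2 fold change of -0.24, a 95% interval of -0.62 to 0.13 and an edgeR adjusted p of 0.597. Nr1h3, the receptor best known from liver and macrophages, was the 1 gene of the 29 that failed the filter on low counts, with 3, 5 and 9 reads in ko and 13, 9 and 9 reads in wt. Per kilobase of exon, Nr1h2 reached 17.7 ± 2.12 CPM per kb in ko and 20.9 ± 3.42 in wt, and Nr1h3 0.122 ± 0.0643 in ko and 0.193 ± 0.0328 in wt (SD, n = 3 each). A difference in Nr1h3 was not tested at these counts.

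Many of these genes were low in the undated libraries of both genotypes, a split looked at after their values were seen. In 16 of the 28 genes both undated libraries lay below all 4 dated ones, against 19.7% of all genes tested, and in 0 genes both lay above, against 19.7%. Among the 18 synthesis enzymes the count below was 11. The median deviation of these enzymes from their own mean log2 level was 0.06, 0.25 and -0.23 in ko replicates 1 to 3 and 0.04, 0.13 and -0.23 in wt replicates 1 to 3. Ko replicate 2 held the highest value of 17 of the 28 genes, wt replicate 2 that of 8, ko replicate 1 that of 2 and wt replicate 1 that of 1. Ko replicate 3 held the lowest value of 12 genes and wt replicate 3 that of 10. Among the 53 related sterol genes tested, described below, ko replicate 2 held the highest value of 5. The share of all genes highest or lowest in each library was not counted.

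**Figure D3:**
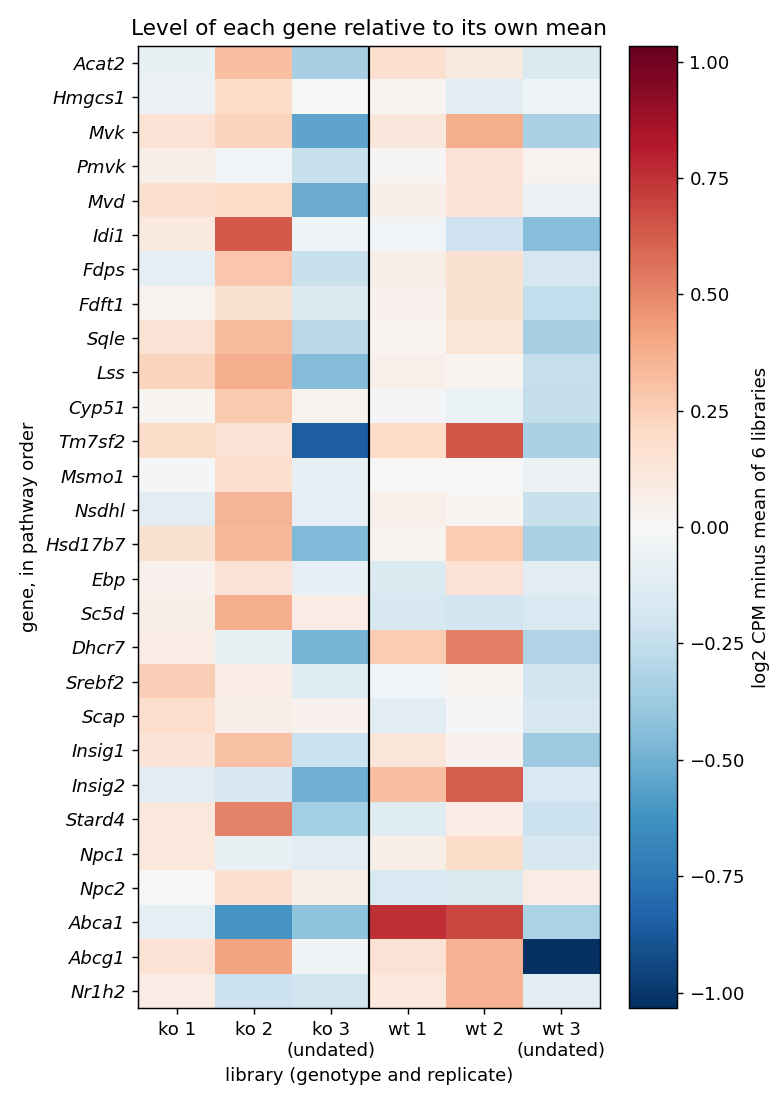
Heat map of the 28 genes by library, each cell the log2 deviation of a gene's level from its mean over the 6 libraries, ko columns left of wt columns. The columns of ko 3 and wt 3 are mostly below the gene means and that of ko 2 mostly above.

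The make-up of the libraries moved along the same split. Summed markers of suprabasal keratinocytes, led by Krt1 and Krt10, were 144896, 164791 and 88993 CPM in ko replicates 1 to 3 and 117031, 148119 and 88244 CPM in wt replicates 1 to 3. Summed markers of basal keratinocytes, with Krt5 and Krt14, were 3360, 4658 and 12028 CPM in ko and 7766, 2107 and 10450 CPM in wt. Both undated libraries were lowest in suprabasal and highest in basal markers, and the part of this in the levels of the sterol genes was not tested. In such bulk libraries fewer cells of a type and less RNA per cell cannot be told apart.

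**Figure D4:**
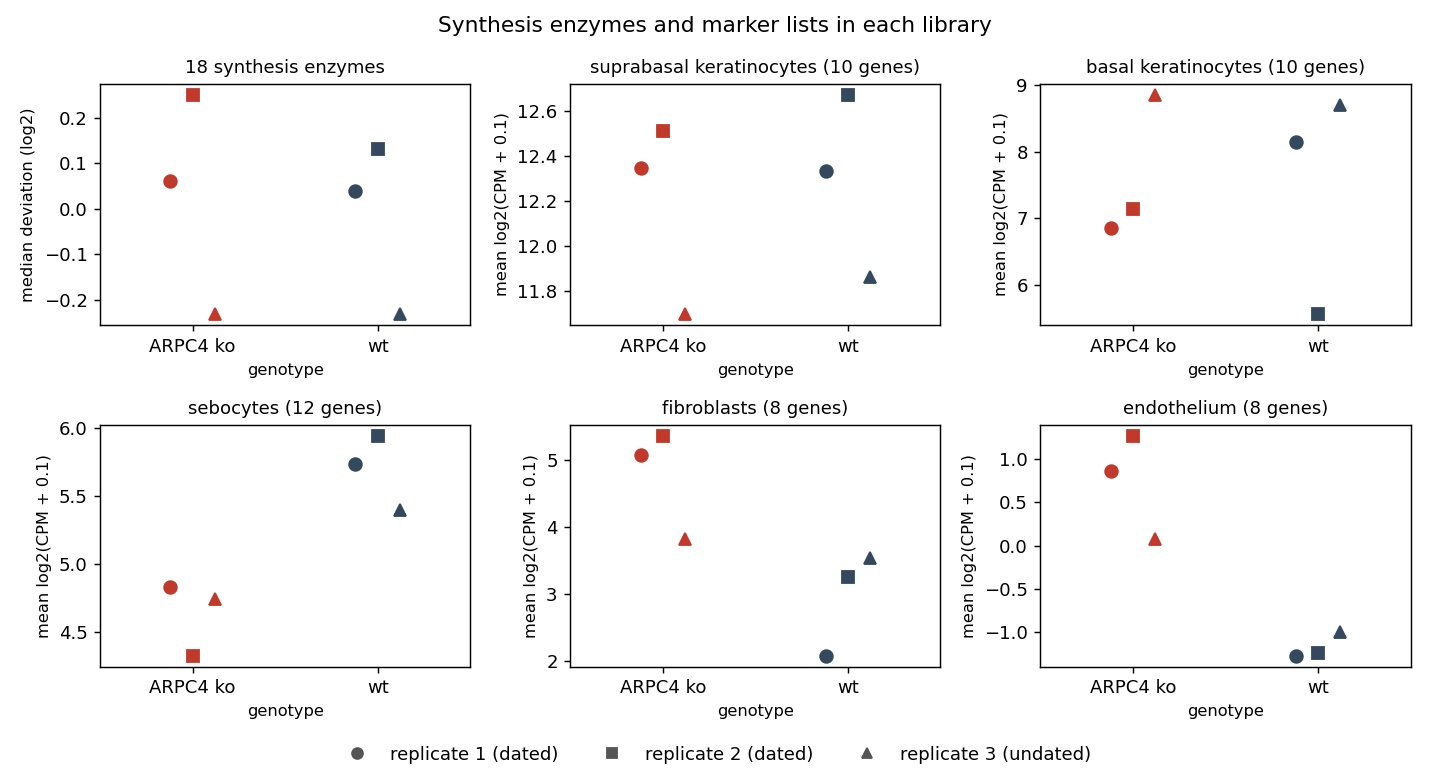
Median deviation of the 18 synthesis enzymes from their gene means in each library, ko left and wt right, in log2, beside the mean log2(CPM + 0.1) of 5 lists of cell type markers. The undated libraries ko 3 and wt 3 have the lowest medians of the synthesis enzymes, both -0.23.

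Of the 96 markers tested in the 12 lists of cell types, edgeR called 0 in either direction, against 0.219% of all genes higher and 0% lower. DESeq2 called 12 higher and 10 lower in ko, against 2.9% and 1.6% of all genes. EdgeR with the title term called 7 higher and 8 lower, against 3.2% and 1.98%. Of the 10 called lower by DESeq2, 1 was the adipocyte marker Plin4, with an adjusted p of 0.0326. Summed sebocyte markers did not overlap between the groups, at 322.9 to 489.7 CPM in ko and 791.3 to 1075 CPM in wt over 12 of 12 genes, with no marker at 0 in any library, and 9 of the 12 were called lower by DESeq2 and 8 with the title term. Fibroblast markers summed to 227.9 to 787.7 CPM in ko and 90.2 to 189.0 CPM in wt over 8 of 8 genes, and 6 were called higher by DESeq2 and 2 with the title term. Endothelial markers summed to 11.1 to 22.0 CPM in ko and 3.46 to 4.49 CPM in wt over 8 of 8, with Emcn at 0 in a wt library, and 5 of the 7 tested were called higher by DESeq2 and 4 with the title term. The summed markers of macrophages and Langerhans cells, most of them Cd74 reads, overlapped between the groups, at 272.4 to 548.7 CPM in ko and 195.3 to 446.8 CPM in wt over 10 of 10. Within that list Mrc1, a receptor of tissue macrophages, had 4.18, 3.96 and 6.50 CPM in ko and 0.484, 0.745 and 1.09 CPM in wt, with groups that did not overlap. Its log2 fold change was 2.65 ± 0.37 (SE), with an adjusted p of 0.0637 by edgeR, 0.00631 by edgeR with the title term and 3.04e-07 by DESeq2, and it was named after its values were seen. Melanocyte markers summed to 98.7 to 139.0 CPM in ko and 70.5 to 91.5 CPM in wt over 7 of 7, and 0 were called by any of these fits. Sebocytes make lipid-rich sebum and macrophages express Abca1, and the part of these cells in the results for Insig2, Abca1 and the related genes was not tested.

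Other genes of the pathway were taken from a list of 57 related sterol genes, of which 55 had an identifier and 53 were tested. EdgeR called 0 of the 53 higher and 0 lower, and 6 had an unadjusted p under 0.05, 4 of them with ko higher, against 7.98% of all genes, and 2 with ko lower, against 5.25%. DESeq2 called 2 higher and 1 lower, against 2.9% and 1.6% of all genes, and edgeR with the title term called 2 higher and 3 lower, against 3.2% and 1.98%. The median log2 fold change was -0.06, with 20 genes above 0 and 33 below, and the groups did not overlap for 4 genes with ko higher, against 11.3% of all genes, and 3 with ko lower, against 8.03%.

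Soat1, which esterifies cholesterol for storage, had 47.4, 27.1 and 42.3 CPM in ko libraries and 81.6, 80.5 and 84.7 CPM in wt libraries. Every ko value was below every wt value. The log2 fold change was -1.08 ± 0.21 (SE), with an adjusted p of 0.0946 by edgeR, 0.0337 by edgeR with the title term and 0.000485 by DESeq2. Soat1 is also 1 of the 12 sebocyte markers, and the other 11 summed to 295.8 to 442.3 CPM in ko and 706.5 to 994.7 CPM in wt. Nceh1, a hydrolase of cholesterol esters known from macrophages, had 21.4, 14.0 and 15.7 CPM in ko and 8.32, 10.4 and 14.1 CPM in wt. Its groups met at ko replicate 2 and wt replicate 3, and its log2 fold change of 0.64 had an edgeR adjusted p of 0.346.

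Cyp7b1, an oxysterol hydroxylase of an alternative route to bile acids, had 2.14, 2.84 and 10.3 CPM in ko libraries and 0, 0.0532 and 0.227 CPM in wt libraries. These levels rest on 43, 48 and 197 reads in ko and 0, 1 and 5 reads in wt. Every ko library was above every wt library, and ko replicate 3 was the highest. The log2 fold change was 5.67 ± 1.02 (SE), with an adjusted p of 0.0798 by edgeR, 0.000663 by edgeR with the title term and 7.22e-07 by DESeq2. Osbpl8, a lipid transfer protein of the endoplasmic reticulum, had 51.8, 65.3 and 101 CPM in ko and 34.0, 32.1 and 37.2 CPM in wt. All its ko values were above its wt values, with a log2 fold change of 1.08 ± 0.25 (SE) and an adjusted p of 0.135 by edgeR, 0.0213 by edgeR with the title term and 0.00873 by DESeq2.

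Acss2, which makes acetyl-CoA from acetate, had 16.8, 19.2 and 13.6 CPM in ko and 27.9, 25.4 and 20.5 CPM in wt. All its ko values were below its wt values, with a log2 fold change of -0.57 ± 0.18 (SE). The adjusted p was 0.251 by edgeR, 0.0388 by edgeR with the title term and 0.122 by DESeq2.

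**Figure D5:**
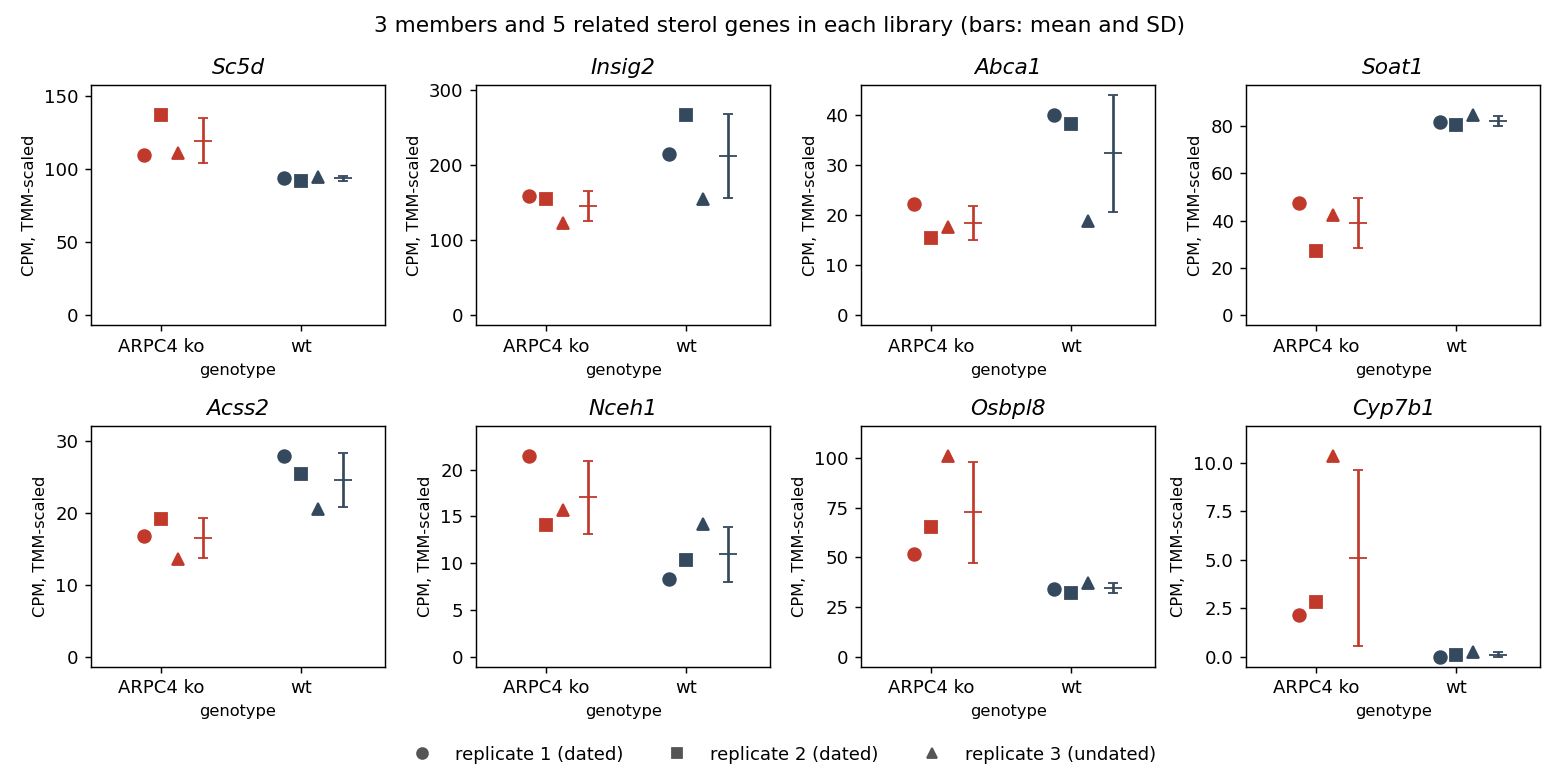
CPM of Sc5d, Insig2, Abca1, Soat1, Acss2, Nceh1, Osbpl8 and Cyp7b1 in each library, ko left and wt right, with the mean and SD of 3 libraries per genotype. The ko points of Soat1 lie between 27.1 and 47.4 CPM, all below the wt points, while the undated wt library of Abca1 lies among the ko points.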

How the data were processed

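The deposited values are raw counts of reads per Ensembl gene, and the tools listed, without roles, by the submitters' processing notes are HTSeq, Bowtie 1.1 and TopHat2 2.0.12, on build mm10. For their settings, annotation release and strand option, not given in the sources used here, nothing was assumed, and reads of overlapping genes could not be told apart. Per the labels, the libraries were stranded and the reads 51 bp long. Reads aligned to several places (32.4 to 40.9% of those listed), ambiguous reads (0.380 to 0.499%) and reads outside genes (0.341 to 0.377%) stayed out. Symbols matched 40254 identifiers, and exon lengths came from GENCODE M21.

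The main test was edgeR 4.0.16 (R 4.3.3) with filterByExpr, TMM scaling, robust glmQLFit and glmQLFTest on genotype, and Benjamini-Hochberg adjustment over 13704 genes at a threshold of 0.05. The SE is the size of a log2 fold change divided by the root of F. DESeq2 1.42.0, limma-voom (limma 3.58.1), a replicate block, a title term, other scalings and filters, the dated libraries alone and leaving out each library were alternatives. The edgeR test was run on simulated counts with 200 genes changed. Those libraries were drawn without a split by title, sex or make-up, so that run does not vouch for the test under such splits. All members were named, with up to 6 related genes of smallest p, of which 1 is not reported here. Members and lists were chosen with earlier results of these data known. Replicates differed by more than sampling noise (chi-square over degrees of freedom, 24.4 to 105.5).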

Additional observations from a re-analysis of the deposited data

How the results depend on the processing

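Of the 28 sterol genes tested, 13 kept the sign of their log2 fold change in all 14 other fits and 15 changed it in at least 1. Abca1 alone was called, in the dated libraries alone, where the count of lower members was 1 against 0 with all libraries. That fit leaves out the wt library that lay among the ko values of Abca1. The members' median ran from 0.02 to 0.06 in the other settings and from -0.05 to 0.12 when 1 library was left out. Each fit was counted over its own genes. Of the 431 that DESeq2 called higher, 398 were among the 13704 genes of the main test. The main fit called 30 higher, against 55 with no filter on low counts, 254 with the replicate block and 438 with the title term. The count was 160 in the dated libraries, 431 with DESeq2, and 0 with limma-voom or a threshold of 0.01. Leaving out 1 library gave 0 to 64. The count called lower was 0, against 2 with no filter, 100 with the block, 271 with the covariate, 67 in the dated libraries and 219 with DESeq2, and 0 to 2 when 1 library was left out. Without ko replicate 3 the higher count was 64 and Cyp7b1 was called, and without ko replicate 2 or any 1 wt library it was 0. Among the related genes, 0 were called higher, against 2 with the block, 2 with the covariate, 1 in the dated libraries and 2 with DESeq2, and 0 to 1 when 1 library was left out. Lower were 0, against 1 with the block, 3 with the covariate and 1 with DESeq2. The cause was not tested.

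The labels do not say that a replicate number marks a shared animal, litter or batch, so the main test did not pair the samples by it. Same-numbered ko and wt libraries correlated in their deviations from the group means at -0.19, 0.47 and 0.67. Differently numbered ones correlated at -0.69 to 0.51. Depth limits Nr1h3 and Cyp7b1, and reads aligned to several places were not counted.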

Other observations

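Nsdhl and Ebp are the members on chromosome X, and the libraries differed in sex-linked transcripts within each genotype. Xist was at 543 and 508 CPM in ko replicates 1 and 3 and at 579 CPM in wt replicate 3, and at 0.177 CPM in ko replicate 2 and 0.220 and 0.425 CPM in wt replicates 1 and 2. The Y-linked Ddx3y was at 121 CPM in ko replicate 2 and at 92.1 and 95.1 CPM in wt replicates 1 and 2, at 0 in ko replicates 1 and 3 and at 1.22 CPM in wt replicate 3. Nsdhl was at 65.5 CPM in ko replicate 2 and at 53.0 and 52.1 CPM in wt replicates 1 and 2, the libraries low in Xist. In the libraries high in Xist it was at 47.3 and 48.4 CPM in ko and at 43.8 CPM in wt. The share of all genes that part along Xist was not counted, so this describes Nsdhl and is not read as a result. Ebp did not split in this way, with 115 CPM in ko replicate 2 and 93.5 and 115 CPM in wt replicates 1 and 2, against 107 and 97.5 CPM in ko replicates 1 and 3 and 95.3 CPM in wt replicate 3. Ko replicate 2, which held the highest value of 17 of the 28 members, was the only ko library low in Xist, and both undated libraries were high in it. That library also had the highest summed markers of skeletal muscle, 40.1 CPM against 4.98 to 9.79 CPM in the other libraries. Its sum of fibroblast markers, 788 CPM, was the highest as well. The part of these traits in the members' levels was not tested.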
